A study of Homo sapiens with 4 samples.

Results

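The genes described here encode the proteasome: the 48 protein-coding genes whose symbols are PSMA, PSMB, PSMC, PSMD, PSME, PSMF or PSMG followed by a number, out of the 20033 protein-coding genes that RefSeq places on GRCh38 chromosomes. Membership was set by symbol alone, with earlier results of these data known. A peak was assigned to a gene when its centre lay in the gene or within 1 kb of it. The study profiled where USF1 sits on the genome of Huh7 cells, an established human hepatocellular carcinoma line made to overexpress USF1, with chromatin immunoprecipitation followed by sequencing. The 4 libraries were 2 of DNA precipitated with an anti-FLAG antibody (IP 1 and IP 2) and 2 of input chromatin from the same overexpressing line (input 1 and input 2). The antibody recognises the tag, so the peaks describe the overexpressed protein, and the labels do not say whether the cells were 1 clone or whether the numbered libraries came from separate cultures. The peak lists hold no expression values, so the identity of the cells was not checked here.

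The proteasome is the protease that degrades ubiquitin-tagged proteins in the cytosol and nucleus. Its core particle is a barrel of rings of alpha (PSMA) and beta (PSMB) subunits, and the cutting sites lie inside on beta subunits. The regulatory particle (PSMC and PSMD) caps the barrel: its base unfolds substrates with ATPases, and its lid removes ubiquitin. Separate activators (PSME) and an inhibitor (PSMF1) also bind the core, and assembly chaperones help to build both parts. Counts given here for the regulatory particle take all PSMC and PSMD genes, so they include the chaperone genes PSMD5, PSMD9 and PSMD10. USF1 belongs to the bHLH-ZIP family of transcription factors, which bind E-boxes, and CACGTG is the E-box it prefers. Proteasome genes are known as targets of another factor, NFE2L1, which binds antioxidant response elements.

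The study deposited 1 peak list for each IP against the input of its number, with 14300 peaks in list 1 and 27325 in list 2. Reads left after duplicates were removed, called tags, numbered 47165647 in IP 1 and 46345938 in its input, and 43942638 in IP 2 and 43562726 in its input. For each peak the authors give its IP tag count, its width, its fold over the input tags expected at the summit, and a false discovery rate (FDR) from swapping IP and input. All these values are the authors' own. With 1 IP per list, the 2 lists give 2 values of each quantity, and no test was made.

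By the 1 kb rule, proteasome genes carried USF1 peaks about as often as protein-coding genes at large. In list 1, 11 of the 48 genes (22.9%) had a peak, against 25.9% of all protein-coding genes. In list 2, 24 of the 48 (50%) had one, against 47% of all. A peak that overlapped in the 2 lists by at least 1 bp, called shared, was found at 6 of the 48 (12.5%), against 16.8% of all. The 6 genes were PSMA1, PSMA3 and PSMA5 of the core particle, the lid subunit gene PSMD6, and the chaperone genes PSMD9 and PSMD10. PSME4 had peaks in each list at separate places, 4 genes (8.33%) had a peak in list 1 alone, against 4.48% of all, and 17 (35.4%) in list 2 alone, against 25.6%. A peak in either list was found at 28 of the 48 (58.3%), against 51.5% of all, and the remaining 20 genes had none. The median proteasome gene spans 13551.5 bp, against 24130 bp for all protein-coding genes, and a longer gene offers more room for a peak; the part of this in the shares was not tested.

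**Figure D1:**
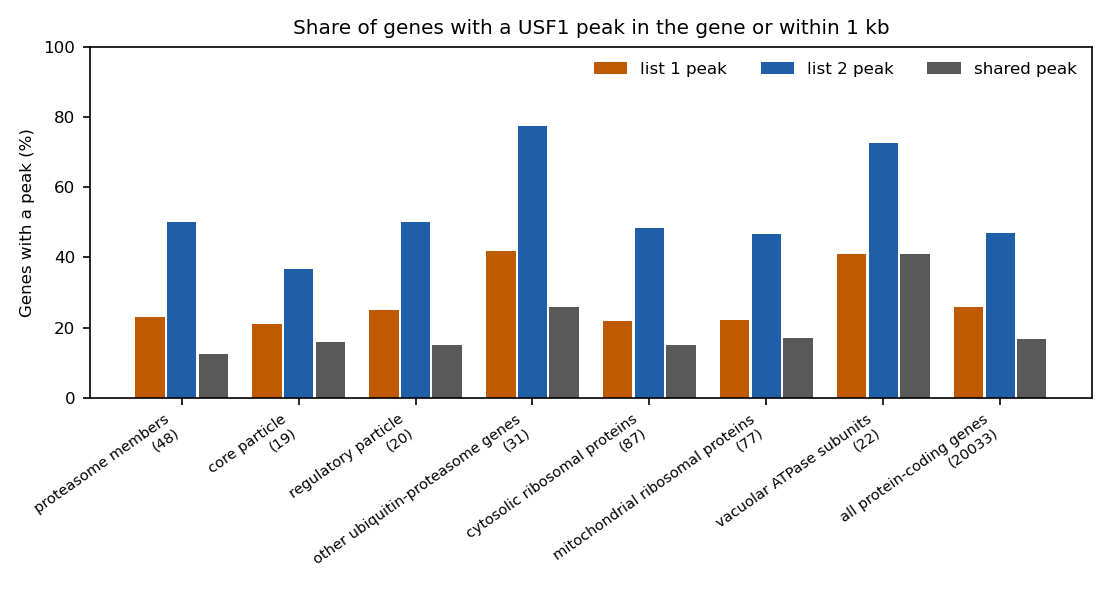
Share of genes, in percent, with a peak in list 1, a peak in list 2 and a shared peak, for the proteasome genes, their core and regulatory particles, 4 other gene groups and all protein-coding genes (number of genes under each name). The bars of the proteasome genes (22.9%, 50% and 12.5%) stand near those of all protein-coding genes (25.9%, 47% and 16.8%).

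Counting only annotated starts removes the length of the gene from the rule. RefSeq promoter entries, which give a start and a strand, were matched for 42 of the 48 genes, all but PSMA7, PSMB1, PSMB6, PSMB7, PSMD4 and PSMG3. A list 1 peak covered the start of 9 of the 42 (21.4%), against 15.8% of 15842 protein-coding genes with an entry. A list 2 peak covered 19 of the 42 (45.2%), against 31.4%, and shared peaks covered 6 (14.3%), against 12.4%. All 6 shared peaks therefore lay over a start. By covered starts, the share of proteasome genes was thus above that of all genes in each list. The same share was 21.4% in list 1 and 40% in list 2 for cytosolic ribosomal protein genes. For mitochondrial ribosomal protein genes it was 21.7% and 44.9%, and for vacuolar ATPase genes 26.7% and 60%.

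The E-box CACGTG was found in the promoter window (250 bases before to 50 after a start, both strands) of 3 of the 42 proteasome genes, PSMD9, PSME3 and PSMB3, a share of 7.14% against 10.9% of all protein-coding genes with an entry. The longer form CACGTGAC was found in 0 of 42, against 4.07%, and the general form CANNTG in 30 of 42 (71.4%), against 70.5%. Every CACGTGAC holds a CACGTG, and every CACGTG is also a CANNTG. Among proteasome genes whose start lay under shared peaks, 1 of 6 held CACGTG, against 34.3% of all genes with such a start and 10.9% of all genes. With a start covered in list 2, 1 of 19 (5.26%) held it, against 20.3% of all genes with such a start. In list 1 it was 2 of 9 (22.2%), against 29.3%. At PSMD9 the E-box lay inside both peaks, with its middle 16.5 bp from the list 1 summit and 19.5 bp from the list 2 summit. At PSME3 it lay inside the list 1 peak, 130.5 bp from the summit. PSMB3, a beta subunit gene, held it 238 bases before the start, and it was 390022 bp from the gene to the nearest list 1 peak and 89517 bp to the nearest list 2 peak.

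The antioxidant response element core TGACNNNGC was found in 15 of the 42 windows (35.7%), against 17.9% of all, and CCAAT, the NF-Y box, in 20 of 42 (47.6%), against 42.1%. Among genes with a start covered in list 2, 8 of 19 proteasome genes (42.1%) held TGACNNNGC by any of their starts, against 21.9% of all. The order was the other way in list 1, with 1 of 9 (11.1%) against 23.7%, and under shared peaks, with 1 of 6 (16.7%) against 23.9%. These counts are per gene, so a match need not lie in the peak. At PSMG2 the match lay outside the list 2 peak, by a start that this peak does not cover. A match is a description of these letters and does not show a site. The stretches that follow (RefSeq, GRCh38.p14, written 5′ to 3′ on the gene's strand and ending at the base before the start) show the 3 promoters with CACGTG and, beside them, PSMA5 and PSMA3, which had shared peaks without it. Capitals mark matches of CACGTG, TGACNNNGC or CCAAT on either strand, which do not overlap one another here. That of PSMD9 is the whole gap to the start of HPD at chr12:121888612-121888789. The others are 250 bases long: PSME3 at chr17:42833147-42833396, PSMB3 at chr17:38752491-38752740 and PSMA3 at chr14:58244593-58244842 on the plus strand, as for PSMD9, and PSMA5 at chr1:109426449-109426698 on the minus strand.
PSMD9: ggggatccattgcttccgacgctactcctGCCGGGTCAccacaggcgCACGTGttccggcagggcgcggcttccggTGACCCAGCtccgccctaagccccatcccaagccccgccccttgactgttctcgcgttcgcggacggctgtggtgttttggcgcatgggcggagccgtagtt
PSME3: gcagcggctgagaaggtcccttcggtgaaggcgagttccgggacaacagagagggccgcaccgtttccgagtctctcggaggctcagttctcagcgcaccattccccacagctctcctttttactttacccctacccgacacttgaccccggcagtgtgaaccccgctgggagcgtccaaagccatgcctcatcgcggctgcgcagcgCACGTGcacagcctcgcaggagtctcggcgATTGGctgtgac
PSMB3: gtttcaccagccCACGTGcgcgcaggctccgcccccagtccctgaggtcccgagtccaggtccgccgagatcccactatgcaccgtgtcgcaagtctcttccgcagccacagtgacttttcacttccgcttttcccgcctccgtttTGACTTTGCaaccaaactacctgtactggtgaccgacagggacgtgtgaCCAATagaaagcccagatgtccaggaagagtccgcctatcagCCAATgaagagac
PSMA5: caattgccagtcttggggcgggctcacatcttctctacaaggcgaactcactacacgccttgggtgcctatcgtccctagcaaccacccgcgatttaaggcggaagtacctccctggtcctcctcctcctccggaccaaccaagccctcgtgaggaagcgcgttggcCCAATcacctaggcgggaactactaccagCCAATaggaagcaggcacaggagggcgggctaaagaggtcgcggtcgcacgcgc
PSMA3: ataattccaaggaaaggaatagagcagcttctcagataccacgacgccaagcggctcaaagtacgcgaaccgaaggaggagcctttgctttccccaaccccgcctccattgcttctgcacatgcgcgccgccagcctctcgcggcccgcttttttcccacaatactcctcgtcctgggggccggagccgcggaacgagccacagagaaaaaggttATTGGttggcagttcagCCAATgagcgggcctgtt
In PSMD9 the E-box stands between the pair of TGACNNNGC matches, all 3 within 36 bp of a summit in each list.

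Within the core particle the shared peaks were all at alpha subunit genes. Of the 7 alpha genes of the common core (PSMA1 to PSMA7), which form the outer rings, 4 (57.1%) had a list 1 peak, 3 (42.9%) a list 2 peak and 3 (42.9%) a shared peak, against 25.9%, 47% and 16.8% of all protein-coding genes. Of the 7 common beta genes (PSMB1 to PSMB7), 0 had a list 1 peak, 2 (28.6%) a list 2 peak and 0 a shared peak. In list 2 the core genes with a peak were 4 PSMA and 3 PSMB genes, with PSMA8 and PSMB10 included.

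PSMA5 had the most tags of the core genes in each list, with 115 tags over 1134 bp in list 1 and 119 tags over 1540 bp in list 2. Its fold was 3.77 in each list, low for the lists, where 4.78% of list 1 peaks and 8.52% of list 2 peaks had as low a fold or lower. The list 1 summit lay 65 bp before the start and the list 2 summit 244 bp after it, on chromosome 1 at chr1:109425908-109427041 (list 1). At PSMA3 the 2 peaks began at the same base, chr14:58244418, and ended at 58245130 in list 1 and 58245270 in list 2. They held 34 tags at 5.62-fold in list 1 and 45 tags at 4.05-fold in list 2. PSMA3 thus had the higher fold in list 1 and the higher tag count in list 2.

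PSMA1 has a long annotation of 138787 bp, and its peaks lay at the start inside it, 15458 bp from the nearer gene end in list 1. The peak at chr11:14519903-14520765 held 59 tags at 3.49-fold in list 1, and the list 2 peak at chr11:14519829-14521456 held 102 tags at 3.69-fold. Their summits were 621 bp apart, on either side of the start, so the shared call at PSMA1 joins a common region rather than a common summit. A second PSMA1 peak in list 2, with 46 tags at 4.05-fold, lay deep in the gene. PSMA2 had a list 1 peak over its start with 72 tags at 3.92-fold, and no list 2 peak there.

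The beta genes with a peak had it away from an annotated start or without a promoter entry. PSMB1 had 25 tags at 5.67-fold in list 2, the fewest tags of the proteasome peaks in that list, 383 bp inside the lower-coordinate end of the gene. PSMB7, which carries the trypsin-like cutting site, had 40 tags at 3.83-fold in list 2 in the gene body. The genes of the other cutting subunits, PSMB5 (chymotrypsin-like) and PSMB6 (caspase-like), had no peak in either list. Of the 3 interferon-induced immunoproteasome genes, PSMB10 had 58 tags at 4.79-fold in list 2, 1199 bp after its start. PSMB8 and PSMB9 were the farthest from a called peak: from PSMB8 it was 896434 bp to the nearest peak centre of list 1 and 745469 bp to that of list 2. Whether reads could be placed uniquely in this region was not tested, so the distance does not show a lack of binding. PSMA8, an alpha subunit of the testis, had 30 tags at 5.46-fold in list 2 in its gene body, and PSMB11, a beta subunit of the thymus, had no peak. PSMA4, PSMA6, PSMA7, PSMB2, PSMB3 and PSMB4 also had none.

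In list 1, peaks stood at 4 of 19 core genes and 5 of 20 regulatory genes, and in list 2 at 7 of 19 core genes and 10 of 20 regulatory genes. Shared peaks were at 3 of 19 core genes and 3 of 20 regulatory genes. No test was made between the particles, and 25.9%, 47% and 16.8% of all protein-coding genes had a list 1, a list 2 and a shared peak. Starts covered in list 1 numbered 4 of 15 in the core (26.7%) and 4 of 19 in the regulatory particle (21.1%), against 15.8% of all. In list 2 they numbered 3 of 15 (20%) and 10 of 19 (52.6%), against 31.4%, and under shared peaks 3 of 15 (20%) and 3 of 19 (15.8%), against 12.4%. The order of the particles by covered starts thus differed between the lists. By genes with a peak it did not, with the core at 21.1% and 36.8% and the regulatory particle at 25% and 50%. This order rests on counting the base assembly chaperone genes as regulatory, while the PSMG chaperone genes are not in the core. List 1 peaks stood at 0 of 9 base, 3 of 8 lid and 2 of 3 base chaperone genes. List 2 peaks stood at 3 of 9, 4 of 8 and 3 of 3. Base and lid genes alone thus had a smaller share than the core in list 1 and a larger one in list 2.

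Of the 9 genes of the base, 0 had a list 1 peak, against 25.9% of all protein-coding genes, and 3 (33.3%) had a list 2 peak, against 47%. These were the ATPase genes PSMC3 and PSMC5 and the scaffold gene PSMD2. PSMC3 had the widest peak of the proteasome genes, chr11:47423968-47428277, with 384 tags over 4310 bp, and 99.5% of list 2 peaks had as many tags or fewer. Its fold was nevertheless 5.94, near the list 2 median of 5.6. PSMC5 had 123 tags at 6.41-fold and PSMD2 42 tags at 4.86-fold. PSMC1, PSMC2, PSMC4, PSMC6, PSMD1 and PSMD4 had no peak by the 1 kb rule.

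Among the 8 lid genes, PSMD6 was the single gene with a shared peak. It held 50 tags over 724 bp at 5.7-fold in list 1 (chr3:64023284-64024007) and 68 tags over 1111 bp at 7.54-fold in list 2 (chr3:64022908-64024018). The summits lay 56 bp apart, both before the start. PSMD12 had 67 tags at 7.94-fold in list 2, the second highest fold of the proteasome genes there, with its summit 24 bp before the start. PSMD7 had 79 tags at 5.93-fold and PSMD8 68 tags at 4.18-fold, each over a start in list 2. PSMD11 had 40 tags at 5.43-fold over its start in list 1, and PSMD14, the deubiquitinase of the lid, 36 tags at 8.01-fold in list 1 in its gene body, 43441 bp after the start. PSMD14 had the highest fold of the proteasome genes in list 1, at an FDR of 100%. PSMD3 and PSMD13 had no peak.

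The genes of the base assembly chaperones, PSMD5, PSMD9 and PSMD10, all had a list 2 peak over the start (3 of 3), against 31.4% of all genes with a promoter entry, and 2 of the 3 had a shared peak, against 16.8% of all protein-coding genes. These proteins bind the ATPases while the base is built and leave the finished proteasome. PSMD9 had the highest score of the 48 genes in each list. Its peak held 91 tags over 1254 bp at 6.51-fold in list 1 (chr12:121888221-121889474) and 101 tags over 1153 bp at 9.29-fold in list 2 (chr12:121888165-121889317). The summits were 3 bp apart, 112 and 109 bp before the start. Its FDR was 33.25% in list 1, where the other 10 proteasome peaks were at 100%, and 0.12% in list 2, the lowest of the 27 there. By score (minus 10 times log10 of the caller's p), 89.3% of list 1 peaks and 96.8% of list 2 peaks were as low or lower.

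PSMD10 encodes gankyrin, an ankyrin repeat protein known as an oncoprotein of liver cancer. Its peak held 42 tags over 773 bp at 5.98-fold in list 1 and 87 tags over 1500 bp at 5.29-fold in list 2. The list 2 peak was the wider, and its summit lay 572 bp before the start, against 147 bp in list 1. PSMD5 had 137 tags over 2149 bp at 3.7-fold in list 2 alone. PSMD9 had a further list 2 peak 372 bp past its far end, with 66 tags at 5.37-fold, which covers the start of CFAP251, a gene of the cilium.

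**Figure D2:**
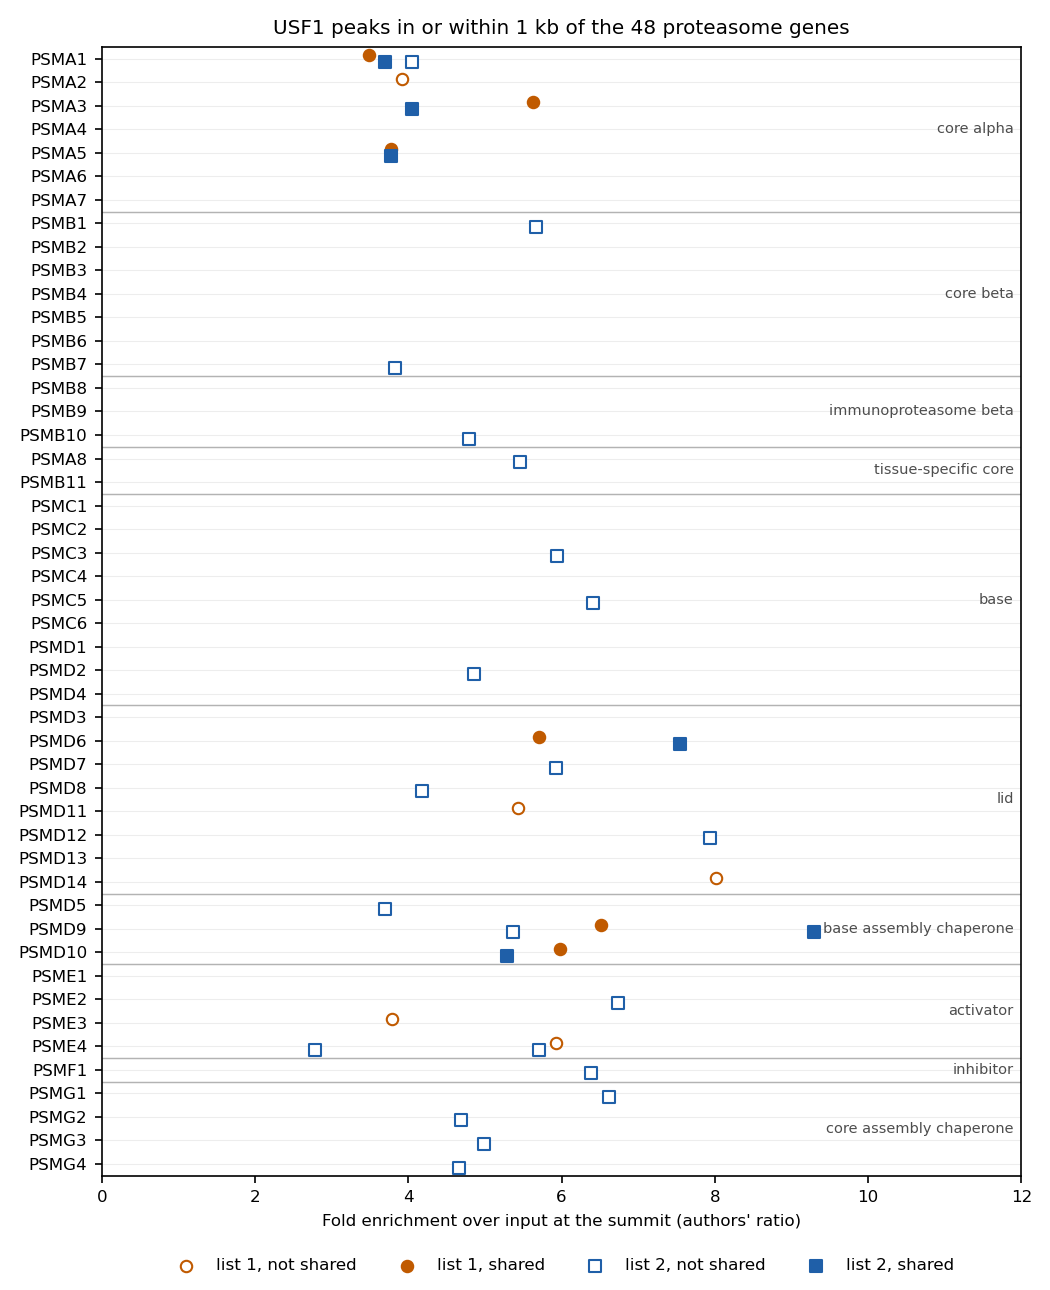
Fold over input (authors' ratio, horizontal axis) of every peak in or within 1 kb of the 48 proteasome genes, grouped by role, with list 1 as circles, list 2 as squares and filled symbols for shared peaks. PSMD9 has the highest list 2 value (9.29) and PSMD14 the highest list 1 value (8.01), and 20 genes have no symbol.

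The activator genes differed from one another. PSME3, whose protein forms a nuclear activator, had 57 tags at 3.79-fold over its start in list 1 alone. PSME2, a subunit of the interferon-induced activator, had 59 tags at 6.73-fold over its start in list 2 alone, and its partner PSME1 had no peak. PSME4, the large activator that acts on histones, had 27 tags at 5.92-fold in list 1, and in list 2 had 65 tags at 5.71-fold and 124 tags at 2.78-fold, the last over its start. None of the PSME4 peaks overlapped a peak of the other list. PSMF1, the gene of the inhibitor, had 37 tags at 6.38-fold in list 2, with its summit 81 bp before one of its starts.

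All 4 core assembly chaperone genes had a list 2 peak and 0 of 4 a list 1 peak. The proteins act in pairs to help the alpha ring close. PSMG1 had 77 tags at 6.62-fold and an FDR of 0.52%, PSMG2 54 tags at 4.68-fold and 5.02%, PSMG3 71 tags at 4.99-fold and 3.59%, and PSMG4 80 tags at 4.66-fold and 4.92%. The group is 1 of 10 roles and has 4 genes. List 1 peaks stood at 25.9% and list 2 peaks at 47% of all protein-coding genes.

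By fold, proteasome peaks were of middling height. Median folds were 5.62 (list 1) and 5.29 (list 2), against 5.75 and 5.45 for all peaks at protein-coding genes. By score the lists differed, with a lower median in list 1 (57.8, against 71.7) and a higher one in list 2 (89, against 74). At a fold of 8 or more there was 1 of 11 proteasome peaks in list 1 (9.09%) and 1 of 27 in list 2 (3.7%), against 15.4% and 13.3% of peaks at protein-coding genes. Median widths were 791 bp in list 1 and 1150 bp in list 2, against 815 bp and 962 bp. Median tag counts were 50 and 68, against 50 and 56. More of the proteasome peaks covered a start of a protein-coding gene (81.8% and 74.1%, against 30.7% and 30.5%). Peaks over a proteasome gene's start had the lower medians when set against all peaks over a start. Their widths were 863 bp and 1270 bp, against 1060 bp and 1300 bp. Their tag counts were 57 and 79, against 79 and 86. Wider proteasome peaks held more tags (Spearman's rho 0.897 over 11 peaks in list 1 and 0.935 over 27 in list 2), whereas fold and width had a rho of -0.292 and -0.104. These are descriptions across peaks of a single library pair each.

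Core and regulatory genes overlapped in height in list 2. The 8 core peaks ranged from 3.69-fold to 5.67-fold with a median of 4.05, and the 11 regulatory peaks from 3.7-fold to 9.29-fold with a median of 5.93. Median tags were 45.5 at core genes and 79 at regulatory genes, and median widths 860 bp and 1260 bp. In list 1 the 4 core peaks had a median of 3.84-fold and 65.5 tags, and the 5 regulatory peaks 5.98-fold and 42 tags. The order of the particles by tags thus differed between the lists, and their order by fold did not.

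**Figure D3:**
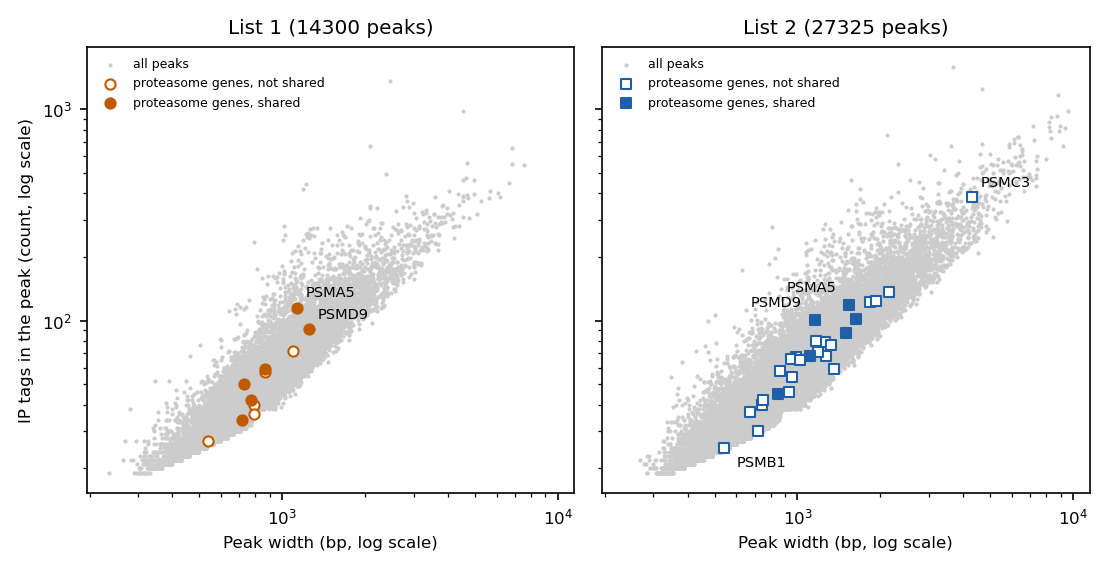
IP tags in each peak against its width in bp (both on log scales) for list 1 and list 2, with all peaks in grey and the peaks of proteasome genes marked, filled where shared. The proteasome peaks lie along the body of all peaks, from PSMB1 (25 tags) to PSMC3 (384 tags) in list 2.

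The lists overlapped at proteasome genes to a degree close to that at other genes. In list 1, 6 of the 11 proteasome peaks (54.5%) met a peak of the other list, against 45.7% of peaks at protein-coding genes. In list 2 it was 6 of 27 (22.2%), against 22.4%. In 5 of the 6 pairs the list 2 peak was the wider, against 66.0% of all overlapping pairs, with the list 1 peak wholly inside it and PSMD9 as the exception. All 6 pairs had more tags in list 2, against 62.8%, and 3 of the 6 had the higher fold there, against 62.7%. Tags per kb were higher in list 1 in 3 of the 6, against 54.5%. Summits of the 6 pairs were a median of 195 bp apart, between 3 bp at PSMD9 and 621 bp at PSMA1, against a median of 38 bp over all 5377 overlapping pairs.

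FDRs separated the lists. At proteasome genes 10 of 11 list 1 peaks stood at 100%, against 60.2% of list 1 peaks at protein-coding genes, and 0 of 11 were at 5% or less, against 3.08%. In list 2, 13 of 27 were at 5% or less (48.1%), against 36.4%. List 2 peaks over a proteasome gene's start had a median FDR of 3.55%, against 2.4% for all list 2 peaks over a start.

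**Figure D4:**
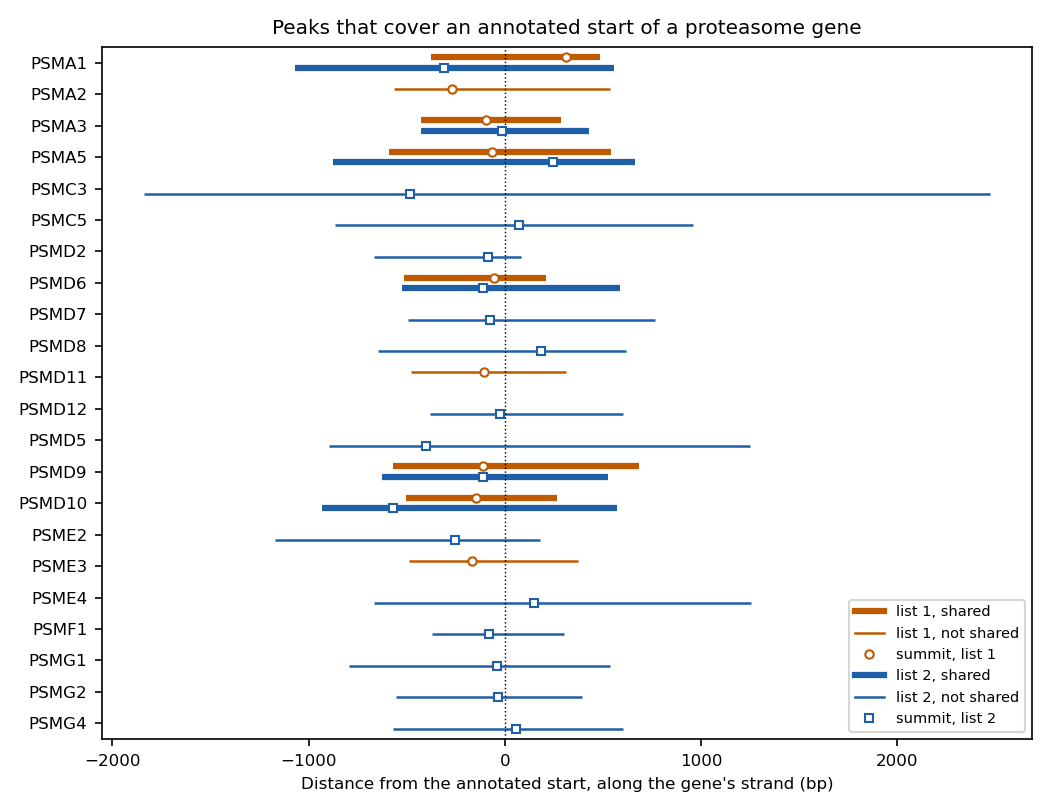
Extent of each peak (line) and its summit (open symbol) relative to the annotated start of the proteasome gene it covers, in bp along the gene's strand, for list 1 and list 2, with thick lines for shared peaks. Summits of PSMD9 stand 112 and 109 bp before the start, and those of PSMA1 and PSMA5 lie on opposite sides of it in the 2 lists.

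Several of these starts face the start of a neighbour, so a peak cannot be given to one gene of the pair. Of the proteasome peaks over a start, 3 of 9 in list 1 and 6 of 19 in list 2 also covered the start of another protein-coding gene, against 14.2% and 13.0% of all peaks over a start. PSMD9 stands head to head with HPD, a liver enzyme gene of tyrosine breakdown, with 178 bases between the 2 starts. PSMD10 faces the autophagy protease gene ATG4A, PSMA2 the mitochondrial ribosomal gene MRPL32, and PSMC5 the gene FTSJ3 of ribosomal RNA modification. PSME2 faces RNF31, a ubiquitin ligase gene, PSME4 faces ACYP2 and PSMG2 faces CEP76. The distance between starts ranged from 58 bp at PSMC5 and FTSJ3 to 265 bp, both at PSME2 and RNF31 and at PSMG2 and CEP76.

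The 1 kb rule left out some nearby peaks. The farthest centre outside a gene that was still counted was 498 bp away, at PSME2 in list 2, and the nearest one not counted was 1092 bp away, at PSMA5 in list 2, with 121 tags at 3.25-fold. Overlapping peaks also lay beyond the window of PSMC6 (1339 bp from the gene in list 1 and 1652 bp in list 2, at the gene STYX), PSMD11 (3163 and 3168 bp, at CDK5R1) and PSMA2 (4893 and 4866 bp, at C7orf25). The pair at STYX had 7.65-fold in list 1 and 6.91-fold in list 2.

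With wider or narrower assignment the shares of proteasome genes stayed near those of all genes. Within 5 kb, 13 proteasome genes (27.1%) had a list 1 peak, 29 (60.4%) a list 2 peak and 9 (18.8%) a shared peak, against 29.2%, 52.2% and 19.2% of all protein-coding genes. Around gene ends alone the counts were 8 (16.7%), 17 (35.4%) and 5 (10.4%), against 14.9%, 30.1% and 11.3%, and with each peak given to its nearest gene 10 (20.8%), 22 (45.8%) and 5 (10.4%), against 22.9%, 42.4% and 13.7%. Stricter thresholds on single peaks left a smaller share of proteasome genes than of all genes, with the exception of list 2 at the FDR threshold. At a fold of at least 8 the counts were 1 (2.08%), 1 (2.08%) and 0, against 5.33%, 9.67% and 3.28%. At a p of at most 1e-10 they were 1 (2.08%), 9 (18.8%) and 1 (2.08%), against 9.36%, 22.5% and 6.25%, with PSMD9 the shared one. At an FDR of at most 5% they were 0, 13 (27.1%) and 0, against 1.33%, 25.9% and 1.3%.

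Among 31 other genes of the ubiquitin-proteasome pathway, taken from a list written by hand that also holds PSMC3IP, a gene with the prefix that encodes no subunit, 13 (41.9%) had a list 1 peak, 24 (77.4%) a list 2 peak and 8 (25.8%) a shared peak, against 25.9%, 47% and 16.8% of all protein-coding genes. RAD23B, a receptor that carries ubiquitin-tagged proteins to the proteasome, had 5.95-fold in list 1 and 5.71-fold in list 2. TXNL1, a thioredoxin bound to the regulatory particle, had 6.85-fold in list 1 and 9.66-fold in list 2, and UBA6, an enzyme that activates ubiquitin, 5.4-fold and 7.79-fold. UBQLN1, another shuttle receptor, had 10.49-fold and 5.93-fold, 6057 bp and 5940 bp inside the gene. UFD1, a cofactor of the unfoldase VCP, had 5.92-fold and 3.98-fold, and ZFAND5, a proteasome activator, 5.11-fold and 6.1-fold. NFE2L1, named after its values were seen, had 161 tags at 5.56-fold centred 97 bp from an end of the gene in list 2 and no list 1 peak. UBQLN2, DDI1, NPLOC4 and UBA1, also named after their values were seen, had no peak in either list.

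Shared peaks stood at 6 of 48 proteasome genes (12.5%), 13 of 87 cytosolic ribosomal protein genes (14.9%), 13 of 77 mitochondrial ribosomal protein genes (16.9%) and 9 of 22 vacuolar ATPase genes (40.9%), against 16.8% of all protein-coding genes. In list 2, in the same order, the counts were 24 of 48 (50%), 42 of 87 (48.3%), 36 of 77 (46.8%) and 16 of 22 (72.7%), against 47%. No test was made between these groups, and nothing is called particular to the proteasome genes from them.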

How the data were processed

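Per the file headers, the authors called peaks with MACS 1.4.2 for each IP against the input of its number, at a p cutoff of 1e-05 with 1 tag kept per position and the bigger data set scaled down, and did not pool replicates. Per the submitters' processing notes, Bowtie2, deepTools, HOMER and GRCh38 belong to the processing, each without a stated role. The deposited values per peak are the count of IP tags, the fold, a ratio of summit tags in the IP to those the caller expected from input and local background, the score (minus 10 times log10 of the caller's p) and the FDR in percent. The paths in the headers name alignment files marked uniq, and how multiple matches were treated is not given in the sources used here.

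Peaks were set against a RefSeq table of GRCh38.p14 genes and RefSeq promoter entries, in Python 3.11.15 with numpy 2.4.6 and pandas 2.3.3 (figures: matplotlib 3.10.9). A peak belonged to a gene when its centre lay in it or within 1000 bp, and was shared when an overlapping peak of the other list belonged to the same gene. Exon and intron positions were not used here. Interval counting was tested on simulated peaks. In 3111 of 3111 overlapping promoter windows on opposite strands the sequences were reverse complements.

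By rule, members with a peak are named with values and the others as without one, and of the pathway genes those with a shared peak are named, of which some are not reported here. NFE2L1 and the pathway genes without a peak were named beyond it. Members, roles, lists and motifs were chosen with earlier results of these data known. Alternatives were other windows, summits, gene ends, stricter thresholds, a stricter overlap, nearest genes and each list alone. No test was made, since each list is a single IP, and tag counts carry counting error and unknown variation between cultures.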

Additional observations from a re-analysis of the deposited data

How the results depend on the processing

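Within 500 bp, with summits, gene ends or nearest genes, and with a stricter overlap, the counts of proteasome genes with a list 1, a list 2 and a shared peak stayed within 1.5 times those reported, and PSMD6, PSMD9, PSMA3 and PSMA5 kept their shared peak. Within 5 kb, 5 regulatory genes had a shared peak in place of 3. At a fold of at least 8, 1 gene had a list 1 peak, 1 a list 2 peak and 0 a shared peak (core 0, regulatory 0). At a p of at most 1e-10 the counts were 1, 9 and 1 (core 0, regulatory 1), and the shared gene was PSMD9. At an FDR of at most 5% they were 0, 13 and 0 (core 0, regulatory 0). These thresholds remove peaks by construction. Without replicate 1 or 2, so with a single list, the count of genes ranged from 11 to 24, of core genes from 4 to 7 and of regulatory genes from 5 to 10. PSMA1 lost its shared peak when only gene ends counted, and PSMD10 when each peak went to its nearest gene. No paired analysis was possible because the peak caller has used up the matching of IP and input numbers, and the lists hold no input counts for single peaks. Low tag counts (25 at PSMB1, 27 at PSME4) limit what single peaks show.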

Other observations

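Of 52 loci annotated as pseudogenes of proteasome genes, 0 had a list 1 peak and 2 a list 2 peak: PSMD7P1 with 37 tags at 6.78-fold (FDR 12.91%) and PSME2P2 with 45 tags at 4.93-fold (FDR 7.73%). The share over all pseudogenes was not counted, so these counts do not show whether such loci have few or many peaks. PSMC3IP, which shares the PSMC prefix but encodes a recombination factor and no subunit, had 44 tags at 8.01-fold in list 2 (FDR 11.58%) and no list 1 peak.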
